A study of Mastomys natalensis with 4 samples.

Results

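The proteasome and the enzymes of ubiquitin conjugation and removal were examined in stomach lining from Mastomys natalensis, a rodent of Africa in which tumours of the stomach's enterochromaffin-like (ECL) cells arise. Probe sets were taken where the platform's annotation gave a single gene symbol that began with Psma to Psmg, Ube1 to Ube4, Uba or Usp followed by a digit. This selected 132 of the 12488 probe sets on the array, for 99 of 8251 genes named by a single symbol. The rule reads gene symbols and no intensities. Total RNA of 4 samples was hybridised to Affymetrix mouse U74 arrays. According to the labels, 2 samples came from animals given loxtidine, a histamine H2 receptor blocker that stops acid secretion, for 8 weeks, a stage called hyperplasia of ECL cells. The other 2 came from animals given it for 16 weeks, a stage called neoplasia. These groups are called early and late here, and values are given as sample 1, then sample 2. All 4 samples were treated, and untreated mucosa was not analysed here, so treatment time, lesion stage and the animals' age cannot be told apart. The labels give no age, sex, dose or number of animals, and do not say whether a sample is a single animal or a pool. P-values therefore reflect no more than the scatter of these samples, part of which may be technical.

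The proteasome is the protease complex that degrades most short-lived and damaged proteins of the cytosol and nucleus. Its 20S core is a barrel of outer alpha rings and inner beta rings, and 3 of the beta subunits carry the catalytic sites. A 19S cap binds the barrel's end, recognises ubiquitin and unfolds the substrate with a ring of ATPases. Ubiquitin reaches a substrate through an activating enzyme (E1), a conjugating enzyme (E2) and a ligase (E3), and is taken off again by deubiquitinases, of which the ubiquitin-specific proteases (Usp) are the largest family. Cells exposed to interferon exchange the catalytic subunits for those of the immunoproteasome, which favours peptides for antigen presentation. In the stomach, as elsewhere, every cell type uses this machinery.

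The arrays carry mouse sequence, so mismatches with Mastomys transcripts lower a probe set's signal by an unknown amount. Levels were therefore compared between samples for the same probe set and not between genes, and a transcript with a dim probe set may still be present. Array medians lay between 15.4 and 19.2 intensity units, and between 55.3% and 62.4% of probe sets were above the floor of 12.15, to which lower values were set before any test. Markers of the labelled tissue were present: all 3 parietal cell and both surface mucous cell genes named on the array were above the floor. The 5 annotated ECL cell genes had summed intensities of 385 and 457 early against 555 and 521 late, while Hdc, the histamine-forming enzyme that defines these cells, was under the floor in all samples. Of the 4 that were tested 3 had higher late means, with overlapping groups for Chga. Chgb lay the other way, at 101 and 61.7 early against 51.5 and 64.2 late. Parietal cell genes had summed intensities of 6788 and 8720 early against 6913 and 6147 late, and surface mucous cell genes of 5239 and 5369 against 4520 and 4326. Smooth muscle transcripts were present too, with sums of 3097 and 2564 against 1566 and 1526 over 7 genes. The labels give every sample a lot batch of its own, so batch and sample cannot be told apart.

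Of the 132 probe sets 98 were above the floor on at least 2 arrays and were tested, for 79 of the 99 genes. The 34 others did not exceed 24.3 in any sample, and 25 of them lay under the floor on all 4 arrays. The 20 genes without a tested probe set included the cap subunits Psmd2 and Psmd12, the assembly chaperones Psmd10 and Psmg2, the activator Psme4, and Uba3, which activates the ubiquitin-like protein Nedd8. Also among them were Ube2l6 and Usp18, which attach and remove the interferon-induced modifier ISG15. The others were Uba1y, Ube2t, Ube2v2, Ube2w, Usp12, Usp17la, Usp22, Usp29, Usp33 and Usp42. Of the members selected by name, Psmc3ip and Psme3ip1 are not proteasome subunits, and neither passed the filter. The activator gene Psme2 had only probe sets that carry several symbols and was not among the members.

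On the deposited scale transcripts of the proteasome's core and of its ATPase ring lay lower in the late samples in most members, whereas ubiquitin enzymes were evenly divided. Of 39 tested proteasome genes, each represented by its brightest probe set, 32 were lower and 7 higher late on the deposited scale, whereas 15 were lower when the arrays were aligned on hybridisation controls. The median log2 difference (late minus early) was -0.32 on the deposited scale. Of 40 tested ubiquitin enzyme genes 20 were lower and 20 higher, with a median of 0.00. Over all 5864 tested genes 2621 were lower and 3243 higher, with a median of 0.07. Cell type markers lay on both sides of 0. Lower late were 5 of 6 tested smooth muscle genes (Des gave 0.08 ± 0.32), 3 of 3 parietal cell genes and 2 of 2 surface mucous cell genes. Also lower were 3 of 4 macrophage genes and 2 of 3 red blood cell genes, against 44.7% of all tested genes. Atp4b gave -0.84 ± 0.35, while the parietal cell genes Atp4a (-0.13 ± 0.26) and Cblif (-0.17 ± 0.29) had overlapping groups. Muc5ac gave -0.63 ± 0.28 and Tff1 -0.24 ± 0.23. Higher late by their means were 5 of 5 T and NK cell genes, 4 of 4 B and plasma cell genes and 3 of 4 ECL cell genes. Both late values lay above both early values in 3, 3 and 2 of these, against 27.5% of all tested genes. The groups overlapped for Zap70, Cd3e and Cd79b, and Cd3d lay near the floor (0.07 ± 0.23). The part of these cell types in the proteasome values was not tested. In bulk tissue, fewer cells of a type and less RNA per cell cannot be told apart. No single member passed the test. Benjamini-Hochberg adjusted p-values of limma's moderated test ran from 0.301 to 0.999 over the member probe sets, and 0% of all 7883 tested probe sets passed an adjusted p of 0.05. With 2 samples a group an exact permutation test cannot give a two-sided p below 0.333.

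At an unadjusted p of 0.05 in limma, 8 of 98 member probe sets were lower (8.16%, against 5.87% of all tested probe sets) and 4 were higher (4.08%, against 8.08%). All 8 that were lower belong to proteasome genes, as do 2 of the 4 that were higher. Of 48 tested proteasome probe sets 8 were lower and 2 higher, and of 50 ubiquitin enzyme probe sets 0 and 2. The counts over all members depended on single arrays. The number lower was 4 without early sample 1, 4 without early sample 2, 13 without late sample 1 and 5 without late sample 2, and the number higher was 2, 7, 4 and 0. Aligned on hybridisation controls, 1 member probe set was lower and 20 were higher at an unadjusted p of 0.05 in limma. On the deposited scale, groups that did not overlap were more common on the lower side than over the array. In 32 member probe sets (32.7%) both late values lay under both early values, against 20.6% of all tested probe sets, and in 19 (19.4%) both lay above, against 28.7%. Counted by gene, 30 of 79 members (38%) lay apart on the lower side, against 21.1% of all tested genes, and 13 (16.5%) on the higher side, against 27.5%. For the 48 tested proteasome probe sets these shares were 39.6% lower and 16.7% higher, and for the 50 ubiquitin enzyme probe sets 26% and 22%. The typical spread between samples of a group was of the same order as the differences: over the member probe sets the median size of the log2 difference between samples of a group was 0.23 at 8 weeks and 0.29 at 16 weeks, and the median size of the difference between groups was 0.36.

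**Figure D1:**
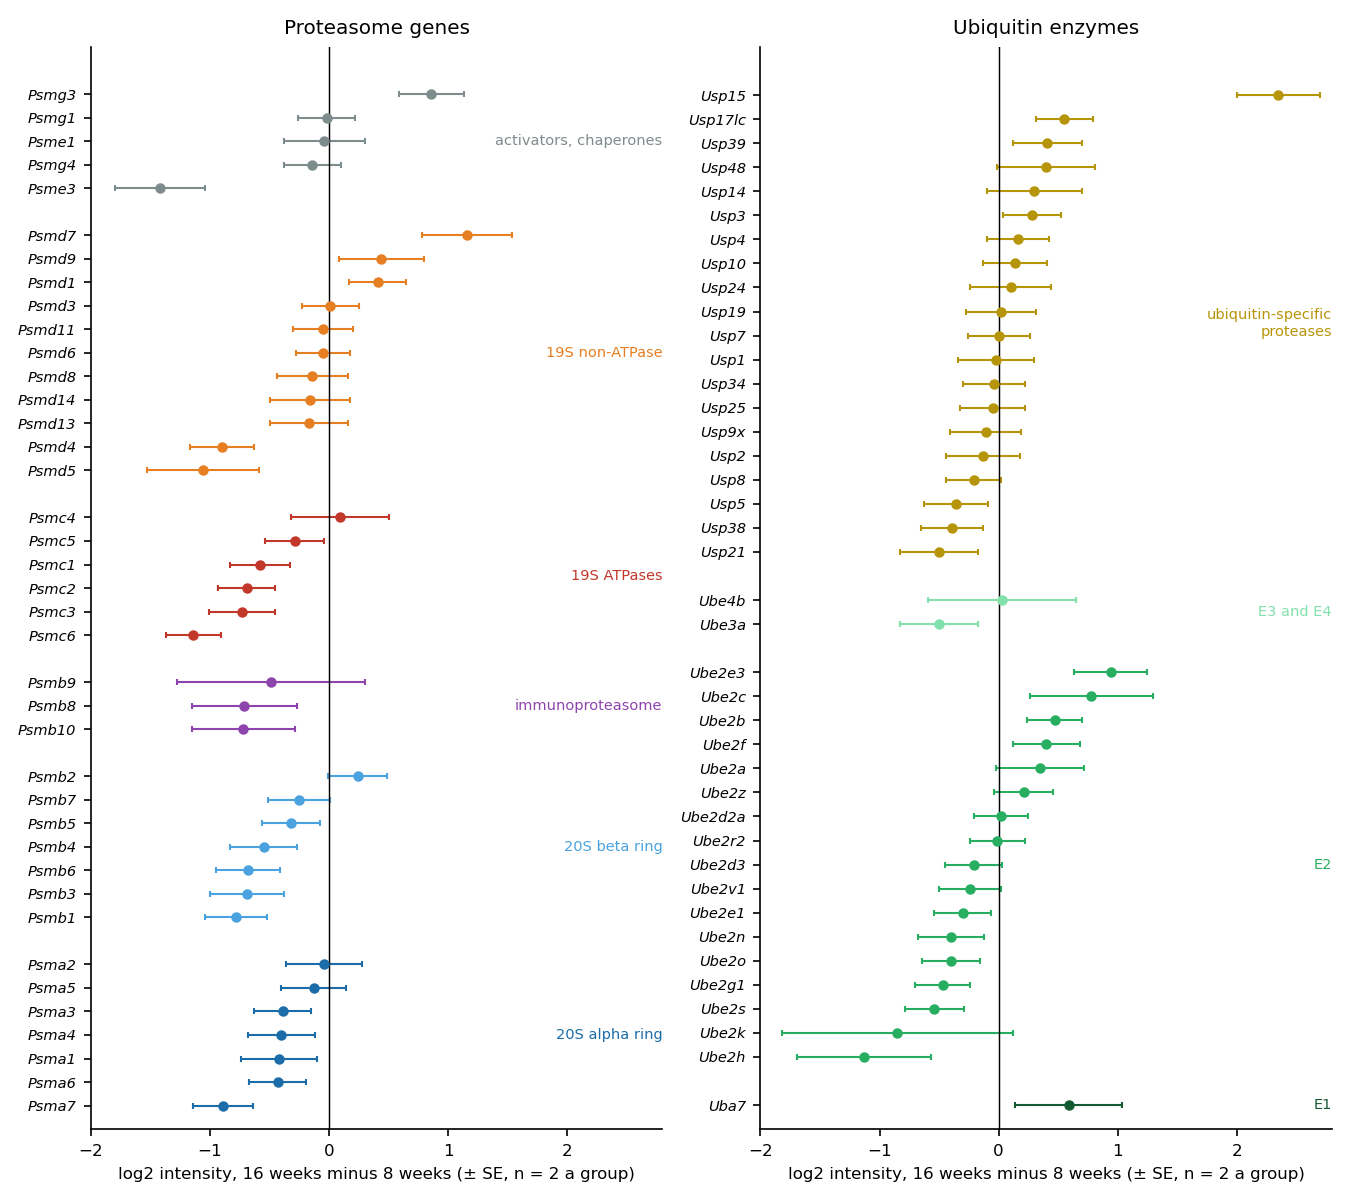
Log2 intensity at 16 weeks minus 8 weeks for each tested gene (brightest probe set), with the standard error from limma (n = 2 samples a group), for proteasome genes (left) and ubiquitin enzymes (right), coloured by class. On this deposited scale all 7 alpha ring genes (1 of 7 when aligned on hybridisation controls) and 5 of 6 ATPase genes (4 of 6) lie left of 0, while the E2 enzymes and ubiquitin-specific proteases lie on both sides.

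All 7 genes of the alpha ring, which gates the entry to the core, were lower late on the deposited scale (1 of 7 when aligned on hybridisation controls), with differences from -0.89 to -0.04 and a median of -0.40. In 5 of the 7 both late values lay under both early values, which held for 21.1% of all tested genes. Psma7 stood furthest from 0: it read 205 and 170 in the early samples and 109 and 94.1 in the late samples, a difference of -0.89 ± 0.25 (standard error, SE). Psma6 read 491 and 460 against 329 and 378 (-0.43 ± 0.24). Psma3 read 83.3 in each early sample and 69.0 and 58.9 at 16 weeks (-0.39 ± 0.24). In all 3 genes both early samples were above both late samples. Psma1 and Psma4 gave -0.42 ± 0.32 and -0.40 ± 0.28, and Psma2 and Psma5 were the members whose groups overlapped, at -0.04 ± 0.32 and -0.13 ± 0.27. The ring's median was -0.18 without early sample 2, -0.25 after quantile normalization, -0.62 with the arrays on a common median, and 0.12 with the arrays aligned on hybridisation controls, an alternative that moved the median of all genes to 0.53.

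The constitutive beta ring, the proteolytic part of the core, had 6 of 7 genes lower on the deposited scale (4 of 7 on the control scale) and a median of -0.55. Of its catalytic subunits Psmb6, the caspase-like site, read 131 and 115 early against 87.6 and 67.0 late (-0.68 ± 0.27). Psmb7, the trypsin-like site, read 189 and 146 against 146 and 133 (-0.25 ± 0.26). Psmb5, the chymotrypsin-like site, read 270 and 258 against 225 and 198 on its brightest probe set (-0.32 ± 0.24). The groups did not overlap for Psmb6 and Psmb5, and for Psmb7 the lower early value lay just under the higher late value. Among the structural subunits Psmb1 read 239 and 205 against 142 and 116 (-0.78 ± 0.26). Psmb3 gave 184 and 178 against 140 and 89.4 (-0.69 ± 0.31), and Psmb4 gave 516 and 460 against 392.3 and 281 (-0.55 ± 0.28). In these 3 genes late sample 2 was the lowest of the samples and the groups did not overlap, and without it Psmb3 gave -0.37 and Psmb4 -0.31. Psmb7 gave -0.06 without early sample 1 and -0.44 without early sample 2. Psmb2 was the exception, at 128 and 121 against 164 and 132 (0.24 ± 0.25).

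The beta ring's median and its count of lower genes depended on which probe set stood for a gene. Psmb1, Psmb4 and Psmb5 each had a dimmer probe set that lay the other way. The second Psmb1 probe set read 92.9 and 103 early against 126 and 147 late (0.48 ± 0.24), and the third gave 0.17 ± 0.25. The second Psmb5 probe set read 71.5 and 76.4 against 96.7 and 116 (0.52 ± 0.25). In both cases the groups did not overlap, in the direction opposite to the brighter probe set of the same gene. The second Psmb4 probe set read 30.6 and 32.8 against 31.5 and 43.5 (0.22 ± 0.27). Without probe sets whose name marks shared or reduced probes 3 of 6 tested genes of the ring were lower, with a median of -0.23. The ring's median was -0.17 with the mean of each gene's probe sets, -0.26 after quantile normalization and -0.31 without late sample 2. With the arrays aligned on hybridisation controls it was -0.03.

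The 19S ATPases, which unfold substrates and thread them into the core, had 5 of 6 tested genes lower and a median of -0.63. In these 5 both late values lay under both early values, against 21.1% of all tested genes. Psmc6 read 594 and 561 early and 255 and 267 late, a difference of -1.14 ± 0.23, which is 2.21-fold. It had rank 104 of 7883 by p (limma adjusted p = 0.301), and its difference stayed between -1.19 and -1.10 with any sample left out. Samples of a group differed by at most 0.08 on the log2 scale, far less than the groups. Psmc2 read 273 and 307 against 175 and 184 (-0.69 ± 0.24), and Psmc1 read 45.3 and 42.8 against 26.3 and 33.2 (-0.58 ± 0.25). Psmc5 differed least of the 5, at 212 and 266 against 186 and 204 (-0.29 ± 0.25). Psmc4 was dim and overlapped (0.09 ± 0.41).

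Psmc3, a further ATPase, had 3 tested probe sets. The brightest read 153 and 151 early against 110 and 76.4 late (-0.73 ± 0.28), with groups that did not overlap and a difference of -0.46 without late sample 2. A second gave -0.86 ± 0.59, its late values being 11.3, under the floor, and 39.7. The third, also dim, gave 0.10 ± 0.26. With a sample left out the median of the ATPases lay between -0.63 and -0.53, and with the arrays aligned on hybridisation controls it was -0.10, with 4 of 6 genes lower.

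The other 19S subunits lay on both sides of 0. Of 11 tested genes 7 were lower and 4 higher, with differences from -1.06 to 1.16 and a median of -0.05, which was 0.48 on the control scale. Psmd4, a ubiquitin receptor of the cap, read 36.3 and 26.2 early against 16.4 and 16.6 late (-0.90 ± 0.27). Psmd5, a chaperone of cap assembly that is absent from the finished proteasome, read 57.0 and 67.0 against 46.3 and 18.9 (-1.06 ± 0.47). In both genes the late values lay under the early values, although the Psmd5 difference rested on late sample 2, being -0.42 without it and -1.71 without late sample 1. Psmd7 lay the other way. This lid subunit, the partner of the deubiquitinase Psmd14, read 48.0 and 24.8 against 73.1 and 81.8 (1.16 ± 0.38), and the difference was 0.69 without early sample 2. Psmd14 itself gave -0.16 ± 0.34, with overlapping groups. Psmd11, another lid subunit, had 3 tested probe sets at -0.05 ± 0.25, -0.44 ± 0.27 and 0.71 ± 0.42, in order from the brightest to the dimmest. The lid and base subunits Psmd3, Psmd6, Psmd8 and Psmd13 lay between -0.17 and 0.01. Psmd1 gave 0.41 ± 0.24 and Psmd9 0.44 ± 0.36.

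Of the activators and chaperones 4 of 5 tested genes were lower, with a median of -0.04 that was 0.48 on the control scale and 0.10 without late sample 2. Psme3 had the lowest difference of all tested proteasome genes. It encodes PA28 gamma, the activator that caps the nuclear core particle. It read 39.5 and 50.1 in the early samples and 22.7 and 11 in the late samples, a difference of -1.42 ± 0.38 (limma adjusted p = 0.316). The last value was under the floor, so the size of the difference is a lower bound, and it was -0.97 without that sample. Psme1, the interferon-inducible activator PA28 alpha, read 56.9 and 38.1 against 54.6 and 37.4 (-0.04 ± 0.34), and in each group sample 1 was higher. Psmg3, a chaperone of core assembly, read 127 and 159 against 230 and 288 (0.86 ± 0.27). Its dimmer probe set gave 0.36 ± 0.27, and on both the late values were above the early values. The chaperones Psmg1 and Psmg4 gave -0.02 ± 0.24 and -0.14 ± 0.24, and Psmg4 gave -0.25 without early sample 1 and -0.03 without early sample 2.

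**Figure D2:**
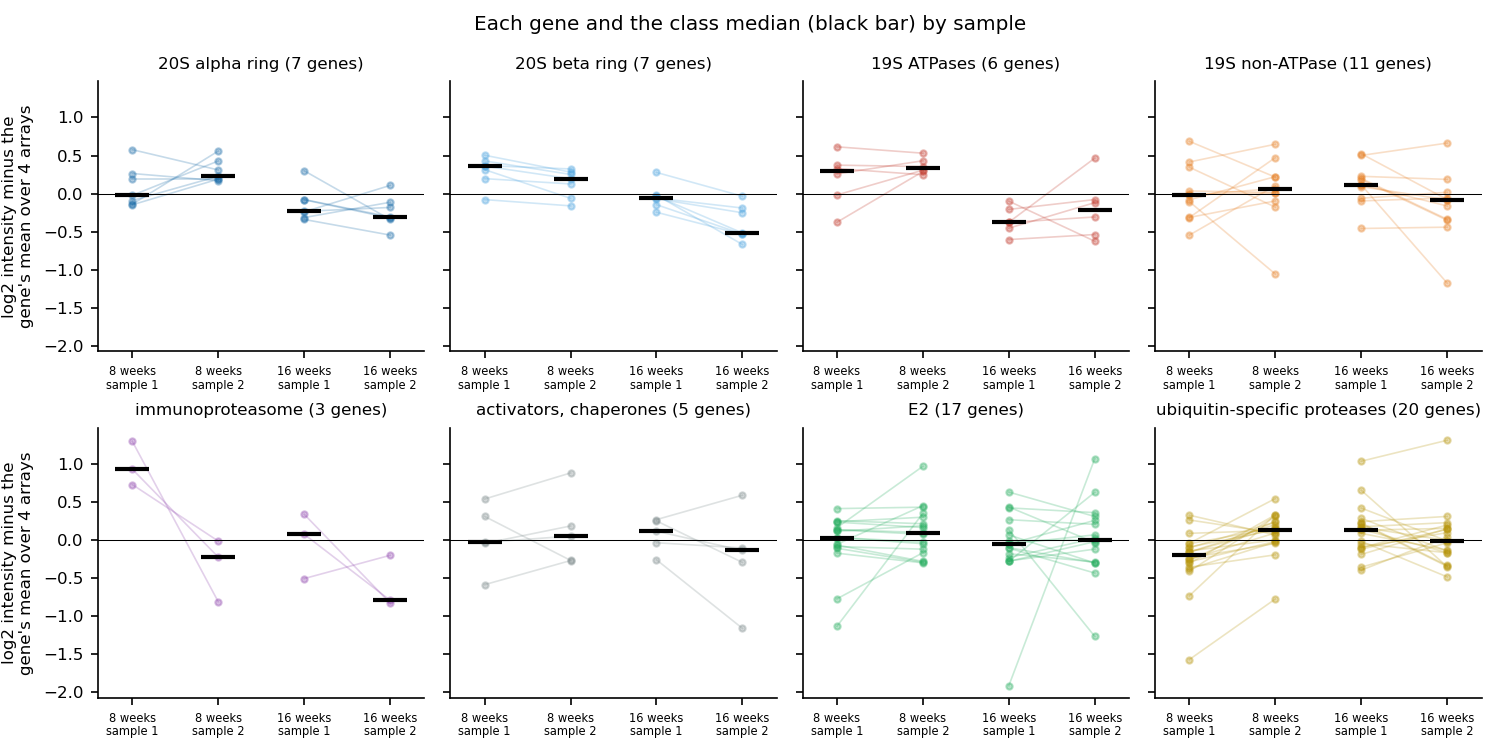
Log2 intensity of each tested gene minus that gene's mean over the 4 arrays, by sample, in 8 classes, with lines joining the samples of a group and black bars for the class median. The ATPase medians are 0.29 and 0.33 early against -0.38 and -0.21 at 16 weeks, whereas the immunoproteasome medians follow single samples, from 0.93 in early sample 1 to -0.79 in late sample 2.

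The class medians by sample showed how far the groups stood apart. After centring each gene on its mean, the median of the alpha ring was -0.02 and 0.23 in the early samples against -0.23 and -0.31 in the late samples. For the beta ring it was 0.36 and 0.19 against -0.06 and -0.52, and for the ATPases 0.29 and 0.33 against -0.38 and -0.21. On the deposited scale the groups did not overlap in these 3 classes. They overlapped for the other cap subunits (-0.02 and 0.06 against 0.12 and -0.08) and for the ubiquitin-specific proteases (-0.20 and 0.13 against 0.14 and -0.01). For the E2 enzymes the medians were 0.03 and 0.10 against -0.05 and 0.00. These did not overlap, but the lower early median stood closer to the higher late median than to the other early median.

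All 3 immunoproteasome subunits had lower late means but differed more within the early group than between the groups. Psmb8 replaces Psmb5 in this form, and read 70.0 and 31.4 early against 25.8 and 31.9 late (-0.71 ± 0.44). Psmb10 replaces Psmb7, and read 112 and 66.9 against 71.2 and 39.0 (-0.72 ± 0.43). Psmb9 replaces Psmb6, and read 53.1 and 12.3 against 27.3 and 11.1 (-0.49 ± 0.79). Each had its highest value in early sample 1, and none had groups that stood apart. Without that sample the class median was -0.13, against -0.71 with all samples, and Psmb9 was higher at 16 weeks by 0.57. Without early sample 2 the median was -1.29, and without late sample 2 it was -0.28. Without early sample 1 Psmb8 gave -0.13 and Psmb10 -0.34.

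Several transcripts of antigen presentation also had their highest value in that sample. The 4 MHC class II genes H2-Aa, H2-Ab1, H2-Eb1 and Cd74 had a summed intensity of 266 and 160 early and of 110 and 107 late, and Cd74 alone gave -1.07 ± 0.30. H2-Aa was at 127 and 36.1 early and at 19 and 17.4 late, and H2-Ab1 at 58.7 and 22.4 early and at 30.3 and 12.6 late, whereas H2-Eb1 peaked in early sample 2 at 65.4. Without early sample 1 H2-Aa gave -0.99, against -1.90 with it, and H2-Ab1 -0.20, against -0.89. H2-Ab1 was -0.26 without late sample 2. The class I antigen presentation list, 9 of 13 genes being annotated, summed to 1075 in early sample 1 and to 782, 780 and 685 in the others. Of these sums the single probe set of H2-D1 made up 712, 369, 356 and 286. Tap1, Tap2, Tapbp, Irf7 and H2-K1 each read higher in early sample 2 than in early sample 1. In that list the peptide transporter subunit Tap2 read 19 and 21.3 against 6.0 and 9.4 (-0.73 ± 0.23), a lower bound in size since both late values were under the floor. Its partner Tap1 gave 0.24 ± 0.24, H2-D1 -0.68 ± 0.39, the loading factor Tapbp -0.37 ± 0.23 and the interferon regulatory factor Irf7 0.79 ± 0.36. Without early sample 1 these were 0.15 for Tap1, -0.21 for H2-D1 and 0.42 for Irf7. Of T and NK cell genes 7 of 8 were annotated, with summed intensities of 154 and 186 early and 222 and 496 late, of which the single probe set of Zap70 made up 354 of the last. Of B and plasma cell genes 4 of 6 were annotated, with sums of 134 and 175 against 201 and 223. All 4 had higher late means, with overlapping groups for Cd79b. Of macrophage genes 5 of 7 were annotated, with sums of 160 and 153 early and 125 and 148 late. The part of these cells in the immunoproteasome values was not tested.

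**Figure D3:**
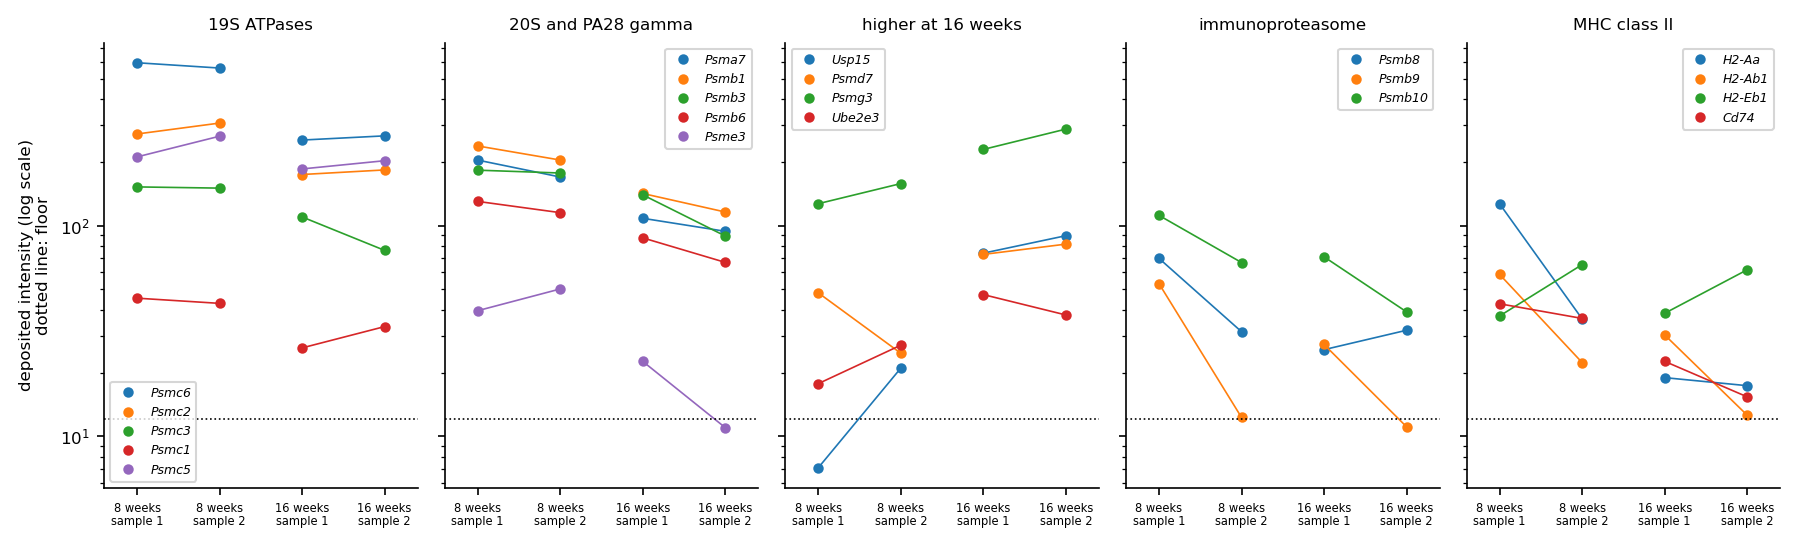
Deposited intensity by sample on a log axis for 5 ATPase genes, 5 genes of the core and its activator PA28 gamma, 4 genes with higher values at 16 weeks, the 3 immunoproteasome subunits and 4 MHC class II genes, with lines joining the samples of a group and a dotted line at the floor of 12.15. Psmc6 lies at 594 and 561 early and at 255 and 267 late, while Psmb8 and Psmb9 share their highest value, in early sample 1, with H2-Aa and H2-Ab1.

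Among the ubiquitin-activating enzymes only Uba7, the E1 for ISG15, could be tested. It read 23.5 and 53.9 early against 59.0 and 48.8 late (0.59 ± 0.45), and its difference was -0.01 without early sample 1. Both probe sets of Uba1y, the Y-linked copy of the main E1, were under the floor, as was Uba3 in all samples but late sample 1 (13.9).

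The E2 enzymes, which hand ubiquitin to ligases, had 10 of 17 genes lower and 7 higher, with a median of -0.21 that was 0.32 on the control scale, 0.00 without the filter on dim probe sets and 0.02 without shared or reduced probe sets. Ube2e3 read 17.8 and 27.1 early against 47.1 and 37.7 late (0.94 ± 0.31), and both late values were above both early ones. Ube2s, which extends chains for the anaphase-promoting complex in mitosis, read 88.3 and 92.0 against 69.4 and 55.3 (-0.54 ± 0.25). Ube2c, which starts those chains, differed in the opposite direction, at 17.6 and 49.3 against 51.8 and 49.6 (0.78 ± 0.52), with early sample 1 alone low. Ube2n and its inactive partner Ube2v1, which together build chains used in signalling, gave -0.40 ± 0.28 and -0.24 ± 0.26, with non-overlapping groups in both. Ube2g1 of the endoplasmic reticulum pathway was steady within groups, at 284 and 276 against 210 and 195 (-0.47 ± 0.23).

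Several E2 values rested on single arrays. Ube2h read 38.0 and 66.5 early against 37.3 and 14.1 late on its brightest probe set (-1.13 ± 0.56), and its other probe set gave 0.17 ± 0.37. The first was -0.43 without late sample 2 and -0.73 without early sample 2. Ube2k read 67.8 and 68.7 against 13.5 and 107 (-0.85 ± 0.97). Its late samples thus lay on either side of the early values, and the difference was 0.65 without late sample 1 and -2.34 without sample 2. The second Ube2k probe set gave 0.14 ± 0.28. Of the E2 enzymes not yet named, Ube2b (0.47 ± 0.23), Ube2f, an E2 for Nedd8 (0.40 ± 0.28), and Ube2z (0.21 ± 0.25) had both late values above the early ones. Ube2o (-0.40 ± 0.24), Ube2e1 (-0.30 ± 0.24) and Ube2d3 (-0.21 ± 0.24) had both under them. Ube2a overlapped (0.35 ± 0.37), and Ube2d2a and Ube2r2 lay within 0.02 of 0. Of the ligases, Ube3a (E6-AP) read 21.4 and 23.2 against 20.4 and 12.2 (-0.50 ± 0.33), and -0.13 without late sample 2. The chain-elongating ligase Ube4b read 8.2 and 39.7 against 18.0 and 28.0 (0.03 ± 0.62), a spread within groups far above the difference.

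The ubiquitin-specific proteases were split, with 9 of 20 genes lower and 11 higher and a median of 0.01, which was 0.53 on the control scale, -0.21 on a common median, -0.19 without early sample 1 and 0.25 without early sample 2. Usp15 had the smallest p of all members. This enzyme, which among other substrates acts on receptors and SMADs of TGF-beta signalling, read 7.1 and 21.1 early against 74.1 and 89.7 late, a difference of 2.35 ± 0.35, or at least 5.09-fold since 1 early value was under the floor. It ranked 19 of 7883 by p (limma adjusted p = 0.301), and the difference was 1.95 to 2.75 with a sample left out. Both late values were more than 3 times the higher early value. The other Usp15 probe set, which failed the filter, read 16.7 and 8.6 against 2.4 and 7.0, so only early sample 1 was above the floor there.

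None of the remaining proteases stood as far from 0. Usp17lc, of a family of cytokine-induced deubiquitinases, read 11.6 and 13.6 against 18.4 and 19.3, close to the floor (0.55 ± 0.24). Usp21, which acts on histone H2A, read 16.5 and 24.8 against 16.8 and 7.7 (-0.50 ± 0.33), and gave -0.21 without early sample 2 and -0.27 without late sample 2. Usp14, a deubiquitinase bound to the cap, gave 0.30 ± 0.40, and Usp5, which takes apart free chains, gave -0.36 ± 0.27. Usp7, which acts on p53 and its ligase Mdm2, gave 0.00 ± 0.26 on its brightest probe set and -0.62 ± 0.25 on the other, where 40 and 49.4 stood against 28.9 and 29.1. Usp3 gave 0.28 ± 0.24, 0.04 ± 0.25 and -0.36 ± 0.32 on its 3 probe sets, from the brightest to the dimmest. Usp9x gave -0.11 ± 0.30 and, on a dim second probe set, 0.53 ± 0.24. The other Usp genes lay between -0.39 and 0.41.

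**Figure D4:**
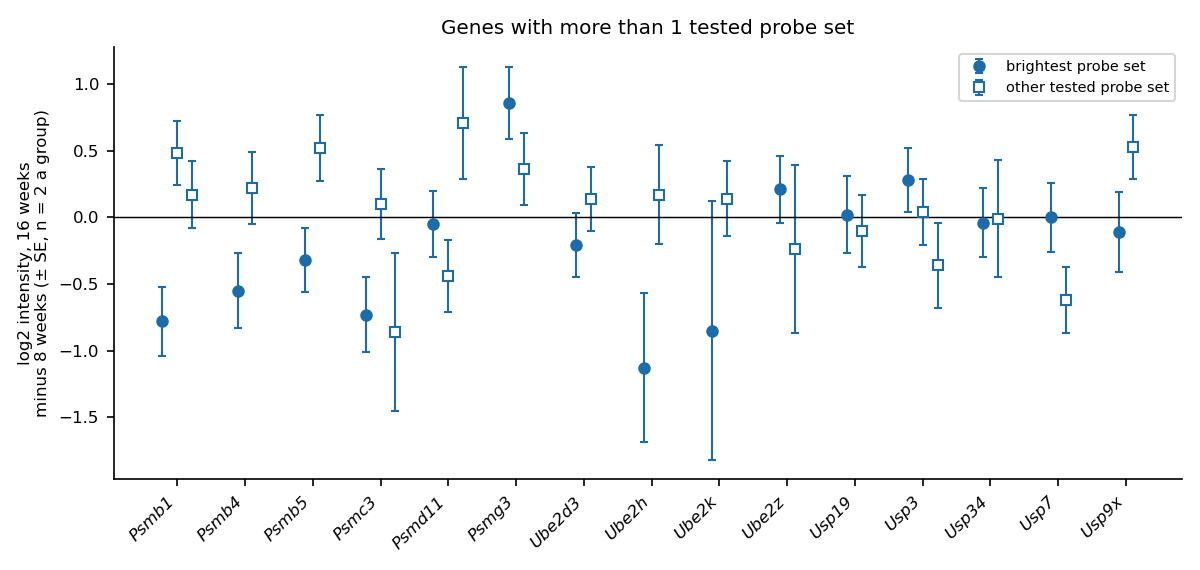
Log2 intensity at 16 weeks minus 8 weeks, with the standard error from limma (n = 2 samples a group), for each tested probe set of the 15 genes with more than 1, the brightest as a filled circle and the others as open squares. In 9 genes, among them Psmb1, Psmb4 and Psmb5, probe sets of the same gene lie on opposite sides of 0 and more than 0.5 apart.

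Probe sets of the same gene disagreed often. Of 15 members with more than 1 tested probe set, 9 had values of opposite sign more than 0.5 apart: Psmb1, Psmb4, Psmb5, Psmc3, Psmd11, Ube2h, Ube2k, Usp3 and Usp9x. In 8 of the 15 the brightest probe set had the lowest difference. The median over all proteasome genes was -0.17 when the probe sets of a gene were averaged, against -0.32 with the brightest.

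Differences across the array also moved with brightness. When all tested genes were ordered by their mean log2 intensity, and divided into 4 groups of equal size, the dimmest group had a median difference of 0.19, with 33.6% of genes lower, and the brightest group a median of -0.13, with 60.8% lower. The brightest group held 21 of the 39 tested proteasome genes, of which 18 were lower, with a median of -0.32. It held 12 ubiquitin enzymes, of which 10 were lower, with a median of -0.16. In the next group down 6 of 8 proteasome genes and 2 of 10 ubiquitin enzymes were lower. In the group under that 8 of 8 proteasome genes and 3 of 9 ubiquitin enzymes were lower. Within these 3 groups the proteasome median lay under that of all genes, at -0.32, -0.11 and -0.53 against -0.13, 0.07 and 0.16. In the dimmest group it lay above, at 0.25 against 0.19, with 0 of 2 genes lower. The part of brightness in the proteasome values was not tested beyond this.

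**Figure D5:**
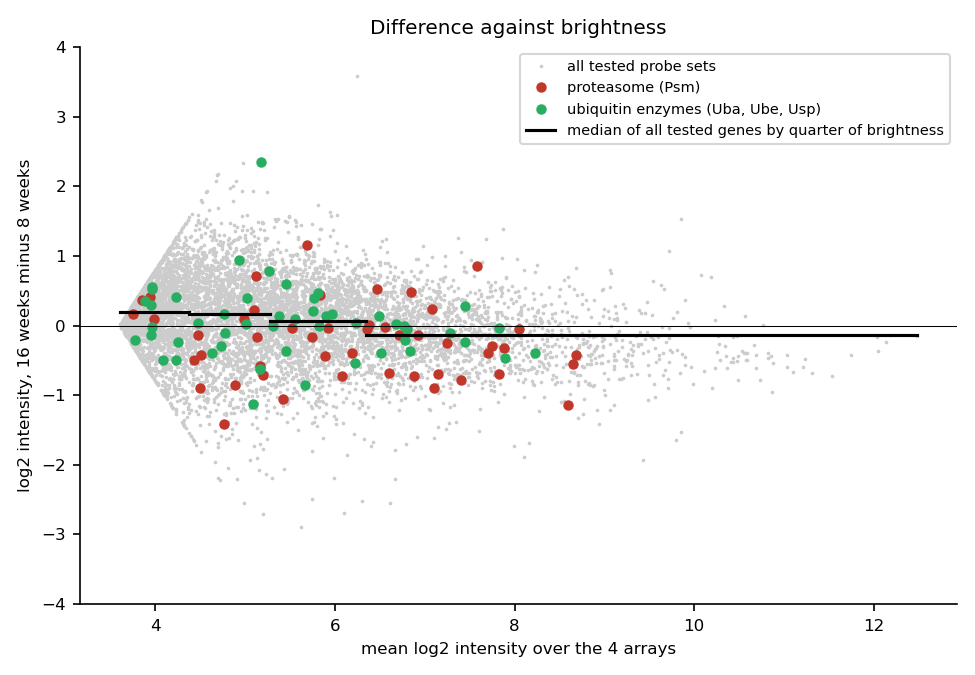
Log2 intensity at 16 weeks minus 8 weeks against the mean log2 intensity over the 4 arrays for all tested probe sets (grey), those of proteasome genes (red) and those of ubiquitin enzymes (green), with black lines at the median of all tested genes in each of 4 groups by brightness (0.19, 0.16, 0.07 and -0.13). Most red points on the right lie below the line, while green points lie on both sides of it.

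The sign of the alpha ring's median and of the median over all proteasome genes depended on how the arrays were scaled to each other. The ATPases (-0.63, -0.60, -0.85 and -0.10), the immunoproteasome (-0.71, -0.74, -0.93 and -0.18) and the beta ring (-0.55, -0.26, -0.78 and -0.03) had medians below 0 on the deposited scale, after quantile normalization, on a common median and on the control scale, in that order. Quantile normalization put 30 of 39 proteasome genes lower (median -0.25, all genes 0.02), and a common median put 33 lower (-0.54, all genes -0.13). The 9 bacterial hybridisation control probe sets, added to each sample in a set amount before hybridisation, were themselves lower at 16 weeks by 0.528 on average. Aligned on them, 15 of 39 proteasome genes were lower, and their median was 0.21 where that of all genes was 0.53. Both the common median and the control alignment shift an array by a constant, so they leave a gene's place relative to other genes as it was, apart from values near the floor. Quantile normalization can move that place: 33 of 39 proteasome genes lay below the median of all tested genes on the deposited scale and 32 after it, and 24 and 22 of 40 ubiquitin enzymes. An absolute decrease of proteasome transcripts was therefore not shown.

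Other genes of the ubiquitin pathway, a list of 104 symbols of ubiquitin-like proteins, ligases, cullins, adaptors and deubiquitinases, had 66 tested genes, of which 34 were lower and 32 higher, with a median of -0.04. At an unadjusted p of 0.05 in limma 4 of the 66 were lower, against 5.78% of all tested genes, and 1 was higher, against 7.54%, so the lower count was near the background. At an adjusted p of 0.05, 0 passed. The lower genes are given in order of p. Nedd8, the ubiquitin-like protein that activates cullins, read 257 and 226 early against 138 and 129 late (-0.85 ± 0.24). Cops6, a subunit of the signalosome that removes Nedd8 from cullins, read 113 and 116 against 57.9 and 70.6 (-0.84 ± 0.25). The scaffold Cul3 read 224 and 242 against 151 and 129 (-0.74 ± 0.24), and Cdc34, an E2 of these ligases, 268 and 255 against 168 and 176 (-0.60 ± 0.23). Of the other tested cullins, Cul1 gave -0.01, Cul2 -0.52, Cul4a 0.37 and Cul7 0.49, named here after their values were seen. The ligase Nedd4 was the gene that was higher, at 12.4 and 24.1 against 38.8 and 46.8 (1.30 ± 0.39), and the difference was 0.82 without early sample 1. Nfe2l1, the transcription factor that drives proteasome genes when the proteasome is inhibited, and the core chaperone Pomp, both also named after their values were seen, gave -0.10 ± 0.23 and 0.17 ± 0.25.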

How the data were processed

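The deposited table holds the authors' linear intensity for 12488 probe sets in 4 samples. The sources used here do not state how it was computed from the scans. Trimmed means of the arrays (2% off each end) lay within 4.76% of their common mean, and the deposited scale was kept. Values under a floor, the median over arrays of the 40th percentile (12.15), were set to it and log2 was taken. Probe sets above it on at least 2 arrays, controls left out, were fitted with limma 3.58.1 (R 4.3.3; lmFit, eBayes, two-sided, Benjamini-Hochberg over all 7883 tested, threshold 0.05), a script first tested on simulated data. The brightest tested probe set stood for its gene.

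Mouse symbols, some perhaps outdated, were taken from the platform annotation. It gave 1 symbol to 10833 of 12422 non-control probe sets, several to 396 and none to 1193. No genome was used, and no sequence is printed.

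Groups came from the labels. The members and lists were chosen with earlier results of these data known. Named genes were the 3 with the smallest p in each class, all members at an unadjusted p under 0.05, a fixed set of catalytic and regulatory genes, members whose probe sets differed in sign by over 0.5, and up to 5 genes of the pathway and antigen presentation lists. Further members are named with their class. Of the remaining marker lists summed intensities, levels and counts of genes are used, and single genes of them are named outside this rule. Alternatives were a lower floor (20th percentile, 5.05), no filter, a pseudocount of 16, other scalings, other choices of probe set, a replicate block and leaving out each sample.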

Additional observations from a re-analysis of the deposited data

How the results depend on the processing

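No member passed an adjusted p of 0.05 in limma under any of the 12 alternatives that were fitted; without the filter 22 of 12422 probe sets passed, none of them a member, where 3323 lay at the floor on all arrays. Of 49 named genes 34 kept their sign under each alternative in which that gene was refitted (at most 12; averaging probe sets was run for class medians only, and genes whose brightest probe set is a shared or reduced one have no single value without it).

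Members at an unadjusted p of 0.05 numbered 5 lower with a lower floor, 19 lower and 2 higher on a common median, 1 lower and 20 higher on the control scale, and 8 higher without the filter. With a sample left out they were 4 to 13 lower and 0 to 7 higher.

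Class medians on a common median were -0.36 for all members, -0.54 for proteasome genes, -0.22 for ubiquitin enzymes, -0.62 for the alpha ring, -0.85 for ATPases, -0.27 for other cap subunits, -0.26 for activators and chaperones, -0.43 for E2, -0.21 for Usp, -0.26 for the other pathway genes and -0.13 for all genes. On the control scale they were, in the same order, 0.37, 0.21, 0.50, 0.12, -0.10, 0.48, 0.48, 0.32, 0.53, 0.46 and 0.53, and -0.03 for the beta ring. Quantile normalization gave -0.25 for the alpha ring, -0.26 for the beta ring and -0.10 for E2, and a pseudocount -0.52 for ATPases. Without the filter proteasome genes gave -0.16 and E2 0.00, and a lower floor gave E2 -0.01. Without shared or reduced probe sets proteasome genes gave -0.17, the beta ring -0.23 and E2 0.02. Averaging probe sets by gene gave -0.17 for proteasome genes, -0.17 for the beta ring, -0.54 for ATPases and -0.04 for E2. The cause was not tested.

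With a sample left out the medians ran from -0.24 to -0.04 for all members, -0.20 to 0.15 for ubiquitin enzymes, -0.39 to -0.18 for the alpha ring, -0.80 to -0.31 for the beta ring, -0.63 to -0.53 for ATPases, -0.14 to 0.09 for other cap subunits, -0.17 to 0.10 for activators and chaperones, -0.18 to 0.00 for E2, -0.19 to 0.25 for Usp, -0.15 to 0.08 for other ubiquitin pathway genes.

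Single genes that changed sign on the control scale were Psma3 (0.14), Psma6 (0.10), Psmb5 (0.21), Psmb7 (0.28), Psmd11 (0.48), Psme1 (0.48), Psmg4 (0.39), Ube3a (0.03), Usp9x (0.42), Tapbp (0.16) and H2-Eb1 (0.51). Ube4b did on a common median (-0.07), and Psmd11 (0.14), Ube4b (-0.02) and Usp9x (0.01) did after quantile normalization. With a sample left out these did: Psmb9 (-1.54 to 0.57), Psmd11 (-0.19 to 0.09), Psme1 (-0.33 to 0.25), Uba7 (-0.01 to 1.19), Ube2k (-2.34 to 0.65), Ube4b (-0.82 to 0.89), Usp9x (-0.39 to 0.17), H2-Eb1 (-0.42 to 0.39).

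The labels number the samples 1 and 2 in each group without saying that a number marks anything shared, and the within-group differences of the numbers correlated at -0.05 over tested probe sets. With the replicate block 0 probe sets passed and 6 members were lower and 4 higher at an unadjusted p of 0.05.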
